A study of Mus musculus with 9 samples.

Results

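The 7 genes described here belong to the methionine cycle and the supply of S-adenosylmethionine (SAM), or lie close to them: Mat2a, Mat2b, Ahcy, Ahcyl1, Mtr, Mtrr and Mtap. Among them, Mat2b encodes a regulatory subunit, Ahcyl1 a paralog of the Ahcy product, and Mtap an enzyme of methionine salvage. The 7 genes were chosen by symbol, with earlier results of these data known. They are the rows of the raw count table whose GENCODE symbol on the GRCm38 mouse genome is in that list. All 7 were found among the 20189 genes of the table, and all 7 passed the filter of at least 1 count and were among the 20143 genes tested. E14 is a line of pluripotent mouse embryonic stem (ES) cells, and the libraries came from wild-type E14 cells that were starved of threonine (Thr) for 3 h, starved of cysteine (Cys) for 3 h, or left unstarved. The treatment text of the labels describes a starvation medium with leukemia inhibitory factor (LIF), β-mercaptoethanol and dialyzed serum, which unstarved cells received with every amino acid present. That text names only Arg and Leu withdrawal, so the withdrawn amino acid was read from the sample titles, and whether the medium was otherwise the same for Thr and Cys is not given in the sources used here. Each group had 3 libraries of poly(A) RNA, and the sources do not say whether these were separate cultures, so p-values measure the spread between these libraries.

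SAM is the methyl donor of most cellular methylation reactions. It is made from methionine and ATP by methionine adenosyltransferase, and after the methyl group is given away the product S-adenosylhomocysteine is split into homocysteine and adenosine, and homocysteine is methylated back to methionine with a folate methyl group. The pathway is of particular interest in mouse ES cells because these cells break down Thr through threonine dehydrogenase, which supplies glycine and single-carbon units to folate.

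Mat2a encodes the catalytic subunit of methionine adenosyltransferase II, and its mRNA is known to be under feedback from SAM. In that feedback the methyltransferase METTL16 recognises hairpins of the Mat2a 3′ untranslated region (UTR) that carry a 9-base sequence, TACAGAGAA or the variant TACAGAAAA (written as DNA). These sequences are shown because Mat2a had the largest change of the 7 genes. In the Mat2a-201 transcript of GENCODE M21 (2804 bases, 9 exons, coding part ending at base 1310) a search for the 9-base sequences on the transcript strand found 6 matches, all of them in exon 9 within the 3′ UTR. They are printed with 10 bases on either side, read along the mRNA from 5′ to 3′, with the matching bases in capitals.
Mat2a site 1: tggcgtaggtTACAGAGAAgccttcaagc
Mat2a site 2: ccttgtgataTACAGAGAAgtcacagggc
Mat2a site 3: ctggtgtagcTACAGAGAAaccagcttcc
Mat2a site 4: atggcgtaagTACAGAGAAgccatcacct
Mat2a site 5: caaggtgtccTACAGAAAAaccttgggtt
Mat2a site 6: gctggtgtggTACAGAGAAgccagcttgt
The gene lies on the minus strand, and on GRCm38 the 6 windows are, in the same order, chr6:72434235-72434263, chr6:72433451-72433479, chr6:72433272-72433300, chr6:72433157-72433185, chr6:72433046-72433074 and chr6:72432938-72432966. Site 5 is the only match with the variant. Either sequence was present in 4.48% of the 141767 transcripts searched, and 3 of 55341 genes held 6 or more matches in 1 transcript: Kcnq1ot1 with 8, AC160336.1 with 6 and Mat2a with 6, the first 2 in transcripts of over 90 kb (93092 and 93147 bases) and Mat2a in transcripts of up to 3387 bases. No match was found in the 33 transcripts of the other 6 genes. A match of letters does not show that a site is used, and the counts do not measure methylation.

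The total count was 48763102 to 74962733 in the Thr-starved, 57700492 to 62657358 in the Cys-starved and 54294288 to 61459894 in the unstarved libraries. Levels are given as CPM, which are counts scaled to a common library total, after TMM normalization. The raw counts of the 7 genes ran from 1947 for Mtrr to 29582 for Mat2a in a single library. The common coefficient of variation between libraries of a group, beyond counting error, was 3.53% over all genes. All 7 markers of pluripotent ES cells were present, with means of 190 to 821 CPM, and their summed level was 3182 to 3229 CPM in unstarved, 3201 to 3212 in Cys-starved and 3547 to 3595 in Thr-starved libraries. The 5 fibroblast, 4 endoderm and 3 mesoderm markers had means of at most 4.88, 2.46 and 2.49 CPM. The summed fibroblast markers were at 15.1 to 15.4, 13.7 to 16.8 and 10.1 to 11.4 CPM, the endoderm markers at 5.24 to 5.82, 7.13 to 8.79 and 4.43 to 4.97 CPM, and the mesoderm markers at 5.91 to 7.49, 5.33 to 5.97 and 2.63 to 2.83 CPM, each in unstarved, Cys-starved and Thr-starved libraries in turn. The 3 neural markers summed to 160 to 166, 198 to 204 and 82.2 to 85.6 CPM in the same order, most of it from the tubulin gene Tubb3. Sums hide markers that moved in opposite directions. With Thr starvation the means of Nanog (283 to 211 CPM) and Pou5f1 (849 to 757) fell and those of the other pluripotency markers rose, among them Klf4 (148 to 267). Of the endoderm markers only Sox7 fell (2.65 to 0.832). Tubb3 fell (147 to 60.5) while the neural markers Sox1 (8.37 to 15.4) and Pax6 (7.53 to 8.24) rose. The pluripotency sum stayed within the unstarved range with Cys starvation, but all 7 of these markers changed (edgeR adjusted p of at most 0.05). Of them 3 rose, among them Esrrb (487 to 583 CPM) and Zfp42 (768 to 859). The other 4 fell, among them Pou5f1 (849 to 780) and Sox2 (397 to 346). The summed level of every list in Thr-starved libraries, and of the endoderm and neural lists in Cys-starved libraries, lay outside the unstarved range. The part of these shifts, of sums and of single markers, in the results below was not tested. In bulk samples, fewer cells that express a gene and less RNA per cell cannot be told apart.

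**Figure D1:**
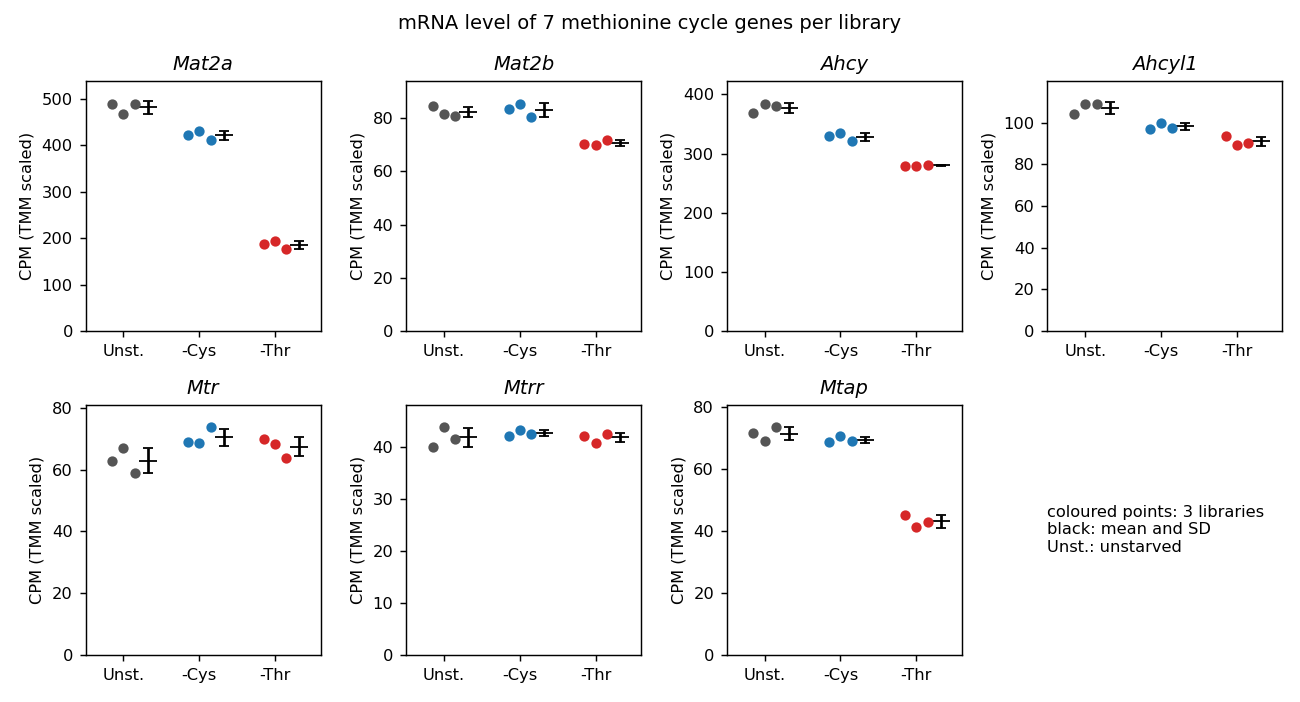
mRNA level of the 7 genes in each library (y axis, CPM after TMM normalization, starting at 0) for unstarved, Cys-starved and Thr-starved cells (x axis). Coloured points are the 3 libraries of a group, and the black mark beside them is their mean with the SD; Mat2a and Mtap lie far below both other groups in the Thr-starved libraries, and Mtrr is at the same level in all 3 groups.

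In Thr-starved cells the transcripts of SAM synthesis, of the hydrolase and its paralog, and of salvage were lower, and Mat2a by the largest amount. With edgeR's quasi-likelihood F test on all 9 libraries, 5 of the 7 genes were called lower than in unstarved cells at an adjusted p (Benjamini-Hochberg) of at most 0.05, none higher, and 2 were not called. Calls were common in this comparison, at 63.0% of all genes tested (31.1% higher and 31.9% lower), so 5 of 7 is near the background share for any change. The libraries of the 2 groups did not overlap for 5 of the 7 genes, against 66.5% of all genes. The median log2 fold change of the 7 was -0.24, where that of all genes tested was -0.02.

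The decreases of Mat2a, Ahcy and Ahcyl1 were smaller with Cys starvation. Over the 11410 genes averaging 5 CPM or more, the median absolute log2 fold change was smaller too, 0.129 against 0.308 with Thr starvation. Of these genes, 13.9% had a lower log2 fold change than Ahcy with Cys and 17.8% with Thr starvation. For Ahcyl1 the shares were 26.2% and 28.6%, and for Mat2a 14.7% and 1.82%. By this rank only Mat2a of the 3 was less extreme with Cys starvation. In Cys-starved cells Ahcy, Mat2a and Ahcyl1 were called lower, Mtr was called higher, and Mat2b, Mtrr and Mtap were not called. In this comparison 36.3% of all genes were called, 17.5% higher and 18.8% lower. The libraries did not overlap for 4 of the 7 genes, against 46.4% of all genes, and the median log2 fold change of the 7 was -0.04. Scaling by the authors' size factors moved the split of all calls in Cys starvation from 48.2% to 36.8% higher, and of the 7 genes the number called was again 3 lower and 1 higher.

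The direct comparison of both starvations called 5 of the 7 genes lower with Thr than with Cys starvation and did not call Mtr and Mtrr (Mtr was called lower as well, by -0.09 at an adjusted p of 0.018, with GC and length trends removed), where 62.0% of all genes were called (30.4% higher and 31.6% lower). The libraries of both starvations did not overlap for those 5 genes, against 65.8% of all genes. The 2 comparisons with unstarved cells share the same 3 control libraries, so they are not independent of each other.

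**Figure D2:**
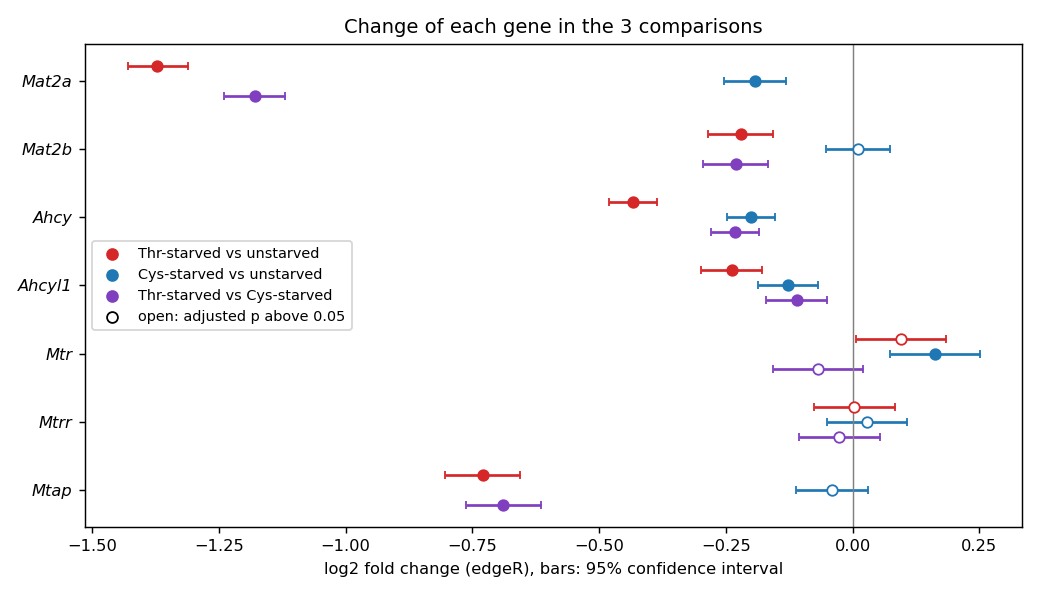
Log2 fold change (x axis) of each of the 7 genes (y axis) in the 3 comparisons, with 95% confidence intervals from the edgeR fit. Filled points had an adjusted p of 0.05 or less and open points did not; Mat2a at -1.37 and Mtap at -0.73 stand apart on the left in Thr starvation, and their Cys starvation values of -0.19 and -0.04 lie near 0.

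Mat2a (ENSMUSG00000053907, chr6:72432799-72439558, minus strand) was at 489, 466 and 488 CPM in the 3 unstarved libraries, at 421, 431 and 411 CPM in the Cys-starved libraries and at 187, 194 and 177 CPM in the Thr-starved libraries. The 3 groups were fully separate, with Thr-starved cells lowest and Cys-starved cells between. The mean fell from 481 ± 13.4 to 186 ± 8.99 CPM (SD, n = 3 each) with Thr starvation, a 2.59-fold lower level (log2 fold change -1.37 ± 0.0298 SE, edgeR adjusted p = 2e-20). In this comparison 208 of the 11410 genes whose mean reached 5 CPM had a lower log2 fold change. With Cys starvation the mean was 421 ± 9.7 CPM, 1.14-fold lower than in unstarved cells (log2 fold change -0.19 ± 0.029 SE, edgeR adjusted p = 1.4e-05). Thr-starved cells were 2.26-fold below Cys-starved cells (edgeR adjusted p = 3.9e-19). Mat2a thus made up 38.1% to 40.1% of the summed level of the 7 genes in unstarved, 37.5% to 38% in Cys-starved and 23% to 24.8% in Thr-starved libraries. This sum leaves out the near-identical copies of Ahcy described below, and with them the shares of Mat2a would be smaller.

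Some Mat2a reads could have been assigned elsewhere. The pseudogene Gm9523 shares 95.2% of its bases with a Mat2a transcript over 1065 bases, and its count was 3.07% of that of Mat2a over all libraries. Gm9523 was at 15.2, 14.8 and 15.3 CPM in unstarved and at 5.18, 3.94 and 4.7 CPM in Thr-starved libraries, 3.26-fold lower (edgeR adjusted p = 9.1e-15). When its counts were added to Mat2a, which was decided after seeing the data, the log2 fold change of Mat2a was -1.38 with Thr and -0.19 with Cys starvation. Particl, a noncoding transcript on the opposite strand whose exons overlap those of Mat2a, held 0.198% of the count of Mat2a. The library kit keeps strand, but the strand setting of the counting is not given in the sources used here.

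Mat2b encodes the regulatory subunit that binds the Mat2a product. Mat2b (ENSMUSG00000042032, chr11:40679314-40695203, minus strand) was at 84.6, 81.7 and 80.9 CPM in unstarved, 83.3, 85.4 and 80.3 CPM in Cys-starved and 70.3, 69.9 and 71.9 CPM in Thr-starved libraries. Every Thr-starved library lay below every library of both other groups, which overlapped each other. The decrease with Thr starvation was 1.17-fold (log2 fold change -0.22 ± 0.0309 SE, edgeR adjusted p = 1.5e-06), and it was -0.33 after the trends of each library with GC content and transcript length were removed. With Cys starvation the log2 fold change was 0.01 with a 95% confidence interval of -0.053 to 0.0737 (edgeR adjusted p = 0.83). Thr-starved cells were 1.17-fold below Cys-starved cells (edgeR adjusted p = 8e-07).

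The mRNAs of the catalytic and regulatory subunits of the same enzyme therefore changed unequally. The ratio of Mat2a to Mat2b counts within a library, which does not depend on the scaling between libraries, was 5.78, 5.7 and 6.04 in unstarved, 5.06, 5.04 and 5.12 in Cys-starved and 2.66, 2.78 and 2.46 in Thr-starved libraries. All 3 groups were separate in this ratio. It was 2.22-fold lower with Thr and 1.15-fold lower with Cys starvation than in unstarved cells, and 1.93-fold lower with Thr than with Cys starvation. Each of these differences had an exact two-sided permutation p of 0.10, the smallest that 3 against 3 libraries can give (adjusted 0.13 over the 9 ratio tests).

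**Figure D3:**
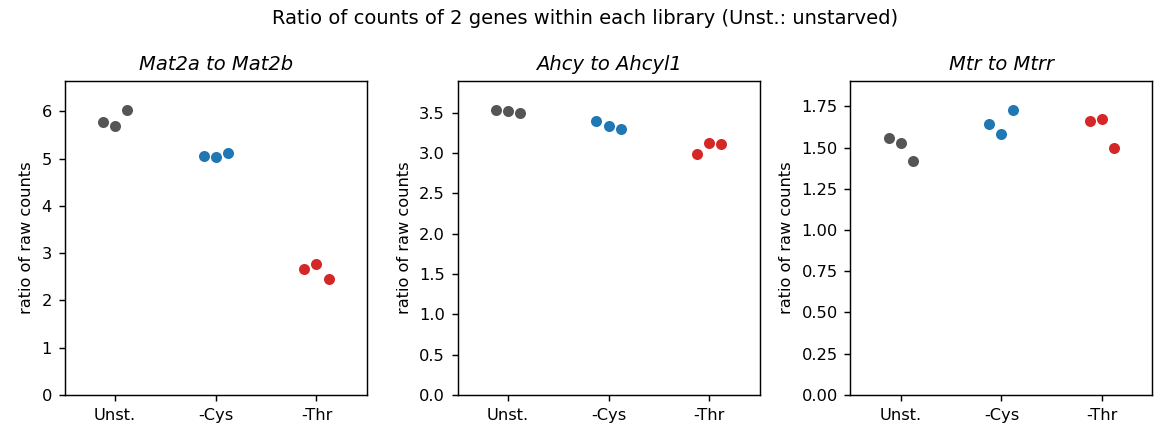
Ratio of the raw counts of 2 genes within each library (y axis, starting at 0) for unstarved, Cys-starved and Thr-starved cells (x axis), with a point for each of the 3 libraries. The ratio of Mat2a to Mat2b is 5.7 to 6.04 in unstarved and 2.46 to 2.78 in Thr-starved libraries, and the ratio of Ahcy to Ahcyl1 steps down less.

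Ahcy encodes S-adenosylhomocysteine hydrolase, which removes the product that inhibits methyltransferases. Ahcy (ENSMUSG00000027597, chr2:155059310-155074497, minus strand) was at 368, 384 and 380 CPM in unstarved, 330, 334 and 321 CPM in Cys-starved and 279, 279 and 281 CPM in Thr-starved libraries. The 3 groups did not overlap. The mean fell from 377 ± 8.3 to 280 ± 0.776 CPM (SD, n = 3 each) with Thr starvation, a 1.35-fold decrease (log2 fold change -0.43 ± 0.0227 SE, edgeR adjusted p = 1.1e-13). With Cys starvation it was 328 ± 6.54 CPM, 1.15-fold below unstarved cells (log2 fold change -0.20 ± 0.0225 SE, edgeR adjusted p = 2.7e-07). Thr-starved cells were 1.17-fold below Cys-starved cells (edgeR adjusted p = 6.2e-09), and this difference went from -0.23 to -0.13 on the log2 scale once GC and length trends were removed (edgeR adjusted p = 4.4e-06).

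The level of Ahcy itself is uncertain, because its reads are shared with near-identical processed copies. Gm4737 matches an Ahcy transcript at 99.7% of 2083 bases, Gm9826 at 99.2% of 1299 bases and Gm5638 at 94.5% of 1128 bases. Gm4737 was at 396, 411 and 406 CPM in unstarved libraries, above Ahcy in each of them, and at 298, 297 and 303 CPM in Thr-starved libraries. Of the counts on Ahcy and these 3 copies together, 41.2% to 41.5% fell on Ahcy in every library, so the division was alike in all groups. With the 3 copies added to Ahcy, also decided after seeing the data, the log2 fold change was -0.44 with Thr and -0.20 with Cys starvation.

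Ahcyl1 encodes a paralog of the hydrolase that is better known as a partner of the inositol trisphosphate receptor. Ahcyl1 (ENSMUSG00000027893, chr3:107663118-107696560, minus strand) was at 104, 109 and 109 CPM in unstarved, 97.1, 100 and 97.4 CPM in Cys-starved and 93.4, 89.3 and 90.1 CPM in Thr-starved libraries. The groups did not overlap, but the steps were small. The decrease was 1.18-fold with Thr (log2 fold change -0.24 ± 0.029 SE, edgeR adjusted p = 1.8e-07) and 1.09-fold with Cys starvation (log2 fold change -0.13 ± 0.0287 SE, edgeR adjusted p = 0.0011). The difference between both starvations, 1.08-fold (edgeR adjusted p = 0.0021), was not called with the authors' size factors (adjusted p = 0.053). The ratio of Ahcy to Ahcyl1 counts was 3.5 to 3.54 in unstarved, 3.3 to 3.4 in Cys-starved and 2.99 to 3.13 in Thr-starved libraries. It was 1.14-fold lower with Thr than in unstarved cells and 1.05-fold lower with Cys starvation, both with an exact permutation p of 0.10.

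No decrease of the remethylation genes was called in either starvation. Mtr encodes methionine synthase, which transfers the folate methyl group to homocysteine by way of cobalamin (vitamin B12). Mtr (ENSMUSG00000021311, chr13:12182712-12258113, minus strand) was at 62.6, 67 and 58.9 CPM in unstarved, 69, 68.5 and 73.6 CPM in Cys-starved and 69.8, 68.1 and 63.8 CPM in Thr-starved libraries. The Cys-starved libraries were all above the unstarved ones, and the Thr-starved libraries overlapped both other groups. Mtr was 1.12-fold higher with Cys starvation (log2 fold change 0.16 ± 0.0426 SE, edgeR adjusted p = 0.0042), which went to 0.11 (adjusted p = 0.015) with GC and length trends removed. With Thr starvation the log2 fold change was 0.10 ± 0.043 SE (edgeR adjusted p = 0.059). That value lay at the threshold: it was called with DESeq2 (adjusted p = 0.042), with RLE scaling (0.044), with the authors' size factors (0.048), after filterByExpr (0.046) and in a fit of the 2 groups alone (0.042), and it was 0.01 (0.78) with GC and length trends removed. Leaving out unstarved replicate 2, Cys-starved replicate 3 or Thr-starved replicate 3 also gave a call (adjusted p = 0.0048, 0.047 and 0.012).

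Mtrr encodes the reductase that returns oxidised cobalamin of methionine synthase to its active form. Mtrr (ENSMUSG00000034617, chr13:68560780-68582149, minus strand) was at 40, 43.7 and 41.5 CPM in unstarved, 42, 43.3 and 42.5 CPM in Cys-starved and 42.1, 40.8 and 42.5 CPM in Thr-starved libraries. The 3 groups overlapped. The log2 fold change was 0.00 with Thr (95% confidence interval -0.0762 to 0.083) and 0.03 with Cys starvation (-0.0495 to 0.108), with edgeR adjusted p values of 0.95 and 0.6. These intervals leave room for changes of up to about 0.1 on the log2 scale, which is less than the change of any of the 5 genes of this group called in Thr starvation. The ratio of Mtr to Mtrr counts was 1.42 to 1.56 in unstarved, 1.58 to 1.73 in Cys-starved and 1.5 to 1.67 in Thr-starved libraries, and only the Cys-starved and unstarved ranges did not overlap (exact permutation p = 0.10, 0.30 and 0.70 for Cys and Thr starvation against unstarved cells and for Thr against Cys starvation, adjusted 0.13, 0.34 and 0.70).

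Mtap encodes methylthioadenosine phosphorylase, which starts the salvage of methionine from the by-product of polyamine synthesis. Mtap (ENSMUSG00000062937, chr4:89137122-89181081, plus strand) was at 71.5, 69.1 and 73.3 CPM in unstarved, 68.6, 70.4 and 68.9 CPM in Cys-starved and 45, 41.1 and 42.9 CPM in Thr-starved libraries. The Thr-starved libraries lay far below both other groups, and those overlapped. The mean fell from 71.3 ± 2.12 to 43 ± 1.98 CPM (SD, n = 3 each), a 1.66-fold decrease (log2 fold change -0.73 ± 0.0357 SE, edgeR adjusted p = 3.1e-14). With Cys starvation the log2 fold change was -0.04 with a 95% confidence interval of -0.112 to 0.0305 (edgeR adjusted p = 0.4). Thr-starved cells were 1.61-fold below Cys-starved cells (edgeR adjusted p = 1e-13). Of the 4 enzymes after Mtap in the salvage pathway, 3 were called lower with Thr starvation, where 31.9% of all genes were. These were Mri1 (log2 fold change -0.14, edgeR adjusted p = 0.0092), Enoph1 (-0.38, 7.4e-09) and Adi1 (-0.40, 6.1e-10), and Apip (-0.06, 0.43) was not called. The 4 genes were named after their values were seen. With Cys starvation none of the 4 was called, although Apip was at an adjusted p of 0.074 with a log2 fold change of 0.15.

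Mat2a and Mtap had the largest decreases of the 7 genes with Thr starvation, and the promoter windows of both are shown for that reason. Only Mat2a was also called lower with Cys starvation. Shared control of the 2 genes was not tested. The 250 bases before a RefSeq start site of each gene (GRCm38.p6, the gene's own strand) are printed. CCAAT (or its reverse complement ATTGG) and TATAAA are in capitals.
Mat2a promoter: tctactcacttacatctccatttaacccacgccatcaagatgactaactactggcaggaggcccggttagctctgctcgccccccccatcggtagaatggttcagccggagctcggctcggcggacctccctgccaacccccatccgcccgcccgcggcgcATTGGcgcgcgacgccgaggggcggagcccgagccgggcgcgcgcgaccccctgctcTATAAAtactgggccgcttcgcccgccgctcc
Mtap promoter: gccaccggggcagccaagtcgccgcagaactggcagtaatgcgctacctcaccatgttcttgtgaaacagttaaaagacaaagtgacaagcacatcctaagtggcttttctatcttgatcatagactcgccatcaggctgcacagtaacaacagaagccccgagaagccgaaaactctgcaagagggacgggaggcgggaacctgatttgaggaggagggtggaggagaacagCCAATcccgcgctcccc
These windows are chr6:72439557-72439806 on the minus strand and chr4:89137120-89137369 on the plus strand. GENCODE starts Mtap at chr4:89137122, so nearly all of the Mtap window lies within the gene as given by GENCODE. Positions below are counted from the RefSeq start. The Mat2a window holds ATTGG at 85 to 89 bases and TATAAA at 27 to 32 bases before the start, and the Mtap window holds CCAAT at 13 to 17 bases before the start and no TATAAA. Searched on both strands, CCAAT was found in 7 of the 10 windows of the 7 genes (some genes have several), in all genes but Ahcyl1, where 33.8% of 32851 windows of all genes held it, and TATAAA in 2 of the 10, of Mat2a and Ahcyl1, where 12.4% of all windows held it. The E-box CACGTG (6.02% of windows) and the amino acid response form TGATGNAA (3.45%) were in none of the windows of the 7 genes, and TGACGTCA (1.55%) was in that of Ahcyl1. These are matches of letters in 250 bases, and no binding was measured.

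Compared per length, Ahcy and Mat2a were the most abundant of the 7 transcripts. In unstarved cells the order of mean CPM per kb of exons was Ahcy (135 ± 2.96), Mat2a (107 ± 2.98), Mtap (22.1 ± 0.657), Mat2b (16.5 ± 0.391), Ahcyl1 (16 ± 0.429), Mtrr (8.03 ± 0.359) and Mtr (7.37 ± 0.479; SD, n = 3 each). The neighbours Mat2b and Ahcyl1 overlapped, as did Mtrr and Mtr, and the other neighbours in the order did not. The order was the same in Cys-starved cells except that Mtr (8.26) and Mtrr (8.2), which overlapped, changed places. In Thr-starved cells Mat2a was at 41.5 ± 2 CPM per kb, below Ahcy at 99.7 ± 0.277, and Mtap at 13.3 ± 0.615 moved from the third to the fifth place, overlapping Ahcyl1 at 13.6 ± 0.321. The summed level of the 7 genes was 1220 to 1231 CPM in unstarved, 1095 to 1132 CPM in Cys-starved and 768 to 787 CPM in Thr-starved libraries. The order and the sum take Ahcy without its near-identical copies, so they carry the uncertainty of its level.

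**Figure D4:**
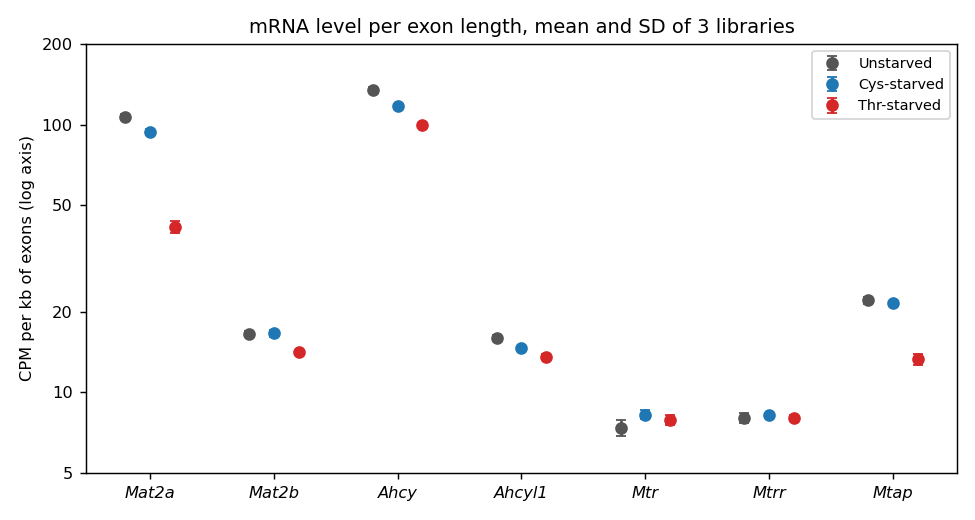
mRNA level per kb of exons (y axis, CPM per kb, log axis) of the 7 genes (x axis) as the mean and SD of 3 libraries per group. Ahcy at 135 and Mat2a at 107 CPM per kb stand above the other genes in unstarved cells, and Mat2a drops to 41.5 in Thr-starved cells.

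How alike the 7 genes were across the 9 libraries was described by Pearson's r of log2(CPM + 0.5). These points share their libraries and group structure, so high values are common. Mat2a and Mtap had r = 0.988, Mat2a and Mat2b 0.952, and Ahcy and Ahcyl1 0.975, while Mtr had -0.188 and Mtrr 0.067 with Mat2a. Among the same 11410 genes, those most like Mat2a were Bmp4 (r = 0.9991) and Xylb (0.9990), whose log2 fold changes were -2.12 and -1.30 with Thr and -0.25 and -0.17 with Cys starvation, and 1674 genes had r of 0.95 or more. Those most like Mtap were Tmem132a (0.9976) and Ankrd9 (0.9974), those most like Mat2b were Uba3 (0.9914) and Tmem238 (0.9913), and those most like Ahcyl1 were Epcam (0.9893) and Rbm45 (0.9879). The gene most like Ahcy was its copy Gm4737 (0.9994), followed by Psmd2 (0.9989). Mtr was most like Vps13c (0.9570) and Celsr1 (0.9561), and Mtrr, for which no gene reached 0.95, was most like Borcs5 (0.9401) and Bad (0.8891).

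The genes around the cycle moved in both directions. Of 41 related genes in 8 lists, 37 had counts to test, and Mat1a, Bhmt2, Nnmt and the symbol Samtor, which the annotation lists as Bmt2, were not tested. Of the 37, 13 were called higher and 15 lower with Thr starvation (median log2 fold change -0.07), 10 higher and 14 lower with Cys starvation (median -0.09), and 12 higher and 16 lower with Thr against Cys starvation (median -0.12), where the medians of all genes tested were -0.02, 0.01 and -0.02. Of all genes tested, 31.1% were called higher and 31.9% lower with Thr, and 17.5% and 18.8% with Cys starvation. With Thr against Cys starvation the shares were 30.4% and 31.6%. The counts of the 37 genes lay above these shares, and the difference was not tested. The shares are over genes of every level, including barely counted ones. The counts of single lists below stand against the same shares and were not tested.

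The exit of homocysteine to Cys held the largest increase among these 37 genes in both starvations. Cth, the last enzyme of Cys synthesis from homocysteine, rose from 102, 99.8 and 98.2 CPM to 179, 174 and 175 CPM with Thr and 199, 191 and 188 CPM with Cys starvation (1.75-fold, edgeR adjusted p = 3.6e-17, and 1.93-fold, 3.1e-17). Cbs, which starts the same route, was lower with Thr starvation (log2 fold change -0.24, edgeR adjusted p = 6.8e-05) and not called with Cys starvation (0.02, 0.74).

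Adenosine, the other product of Ahcy, is removed by adenosine kinase and adenosine deaminase, and both genes were lower with Thr starvation. Adk was at 92.1, 90.3 and 91.7 CPM in unstarved, 79.2, 74.6 and 77.3 CPM in Cys-starved and 36.2, 36.9 and 37.7 CPM in Thr-starved libraries. Its groups did not overlap, and the level was 2.47-fold lower with Thr (edgeR adjusted p = 2.1e-19) and 1.19-fold lower with Cys starvation (1e-06). Ada fell with Thr starvation (log2 fold change -0.65, edgeR adjusted p = 4e-09) and was not called with Cys starvation (-0.10, 0.19). Of the 4 genes of these exits, 1 was called higher and 3 lower with Thr, and 1 higher and 1 lower with Cys starvation.

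Of the 37 related genes, 8 were called in opposite directions in the starvations, against 7.45% of all genes tested. That share is over 20143 genes, of which 11410 averaged 5 CPM or more, as the 8 genes did. A share among genes of like level was not computed, and the difference was not tested. Ahcyl2, the other hydrolase paralog, had the largest difference between the starvations among them. Ahcyl2 was at 37.8, 36.3 and 35.4 CPM in unstarved, 29.6, 30 and 33.8 CPM in Cys-starved and 58.5, 58 and 57.8 CPM in Thr-starved libraries, fully separated. It rose 1.59-fold with Thr (edgeR adjusted p = 5.2e-12) and was 1.17-fold lower with Cys starvation (0.00026), where its paralog Ahcyl1 was lower in both. It belongs to the list of other methionine cycle enzymes, in which 1 of 3 tested genes was called higher and none lower with Thr starvation, and none higher and 1 lower with Cys starvation; the remaining 2, Bhmt and Gnmt, had means under 1 CPM.

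Among the genes of Mat2a RNA control, Mettl16 changed in opposite directions and Ythdc1 and Nudt21 did not. Mettl16 encodes the methyltransferase known to recognise hairpins of the Mat2a 3′ UTR, and no binding to the matches printed above was measured. Mettl16 mRNA rose from 152, 152 and 153 CPM to 206, 204 and 205 CPM with Thr and fell to 118, 122 and 126 CPM with Cys starvation (1.34-fold higher, edgeR adjusted p = 8.7e-13, and 1.25-fold lower, 1.5e-09). With GC and length trends removed the log2 fold change of Mettl16 with Thr starvation went from 0.43 to 0.20 (adjusted p = 2.7e-06). Ythdc1, a reader of N6-methyladenosine in the nucleus, rose with Thr (log2 fold change 0.73, edgeR adjusted p = 5.6e-16) and less with Cys starvation (0.15, 0.00031). Nudt21, a 3′ end processing factor, was lower in both (-0.14, adjusted p = 2.3e-05, and -0.12, 0.00021). Of the 5 tested genes of SAM sensing, Mat2a RNA control and SAM transport, 2 were called higher and 2 lower with Thr, and 1 higher and 3 lower with Cys starvation.

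Amd1, the SAM decarboxylase that commits SAM to polyamine synthesis, was at 249, 255 and 246 CPM in unstarved, 208, 212 and 202 CPM in Cys-starved and 321, 325 and 329 CPM in Thr-starved libraries. The groups were separate, 1.3-fold higher with Thr (edgeR adjusted p = 2.9e-12) and 1.2-fold lower with Cys starvation (8.4e-09), and the Thr value went from 0.38 to 0.20 on the log2 scale (adjusted p = 2.9e-08) with GC and length trends removed. Odc1, the first enzyme of the route, was also called in opposite directions, by 0.08 with Thr and -0.09 with Cys starvation (edgeR adjusted p = 0.00029 and 0.0002), and the Thr value was 0.15 (adjusted p = 6.5e-09) with GC and length trends removed. The spermidine and spermine synthases Srm and Sms were lower in both, Srm by 1.62-fold with Thr and 1.26-fold with Cys starvation (edgeR adjusted p = 1.5e-16 and 6.2e-10) and Sms by 1.2-fold and 1.19-fold (3.7e-09 and 6.1e-08). In this list of 4 genes, 2 were called higher and 2 lower with Thr, and all 4 lower with Cys starvation, where 18.8% of all genes were called lower.

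Handling of cobalamin, the cofactor of Mtr, was mixed. Mmadhc and Lmbrd1, which direct and release cobalamin inside the cell, were higher with Thr (log2 fold change 0.44 and 0.28, edgeR adjusted p = 1.3e-10 and 0.00027) and lower with Cys starvation (-0.33 and -0.31, adjusted p = 1.6e-07 and 0.00038), and the Thr value of Lmbrd1 was 0.13 and no longer called (adjusted p = 0.06) with GC and length trends removed. Mmachc, which processes newly arrived cobalamin, did the reverse (-0.28 and 0.30, edgeR adjusted p = 3.2e-06 and 3.6e-06). Cd320, the receptor that takes up cobalamin, fell from 26.4, 29.1 and 30.1 CPM in unstarved to 14.9, 17.1 and 16.1 CPM in Thr-starved and 22.3, 23.4 and 23.1 CPM in Cys-starved libraries (1.78-fold lower, edgeR adjusted p = 9.4e-12, and 1.24-fold lower, 6.1e-05). Abcd4, which moves cobalamin out of the lysosome together with the Lmbrd1 product, was at 11.4, 12.3 and 10.8 CPM in unstarved, 15, 14 and 14.1 CPM in Cys-starved and 11.9, 11.8 and 12.3 CPM in Thr-starved libraries. Only its Cys-starved libraries stood apart, 1.25-fold higher than the unstarved ones (edgeR adjusted p = 0.00024), and with Thr starvation it was not called (log2 fold change 0.07, 0.38). Of the 6 genes, 3 were called higher and 2 lower with Thr, and 2 higher and 3 lower with Cys starvation.

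**Figure D5:**
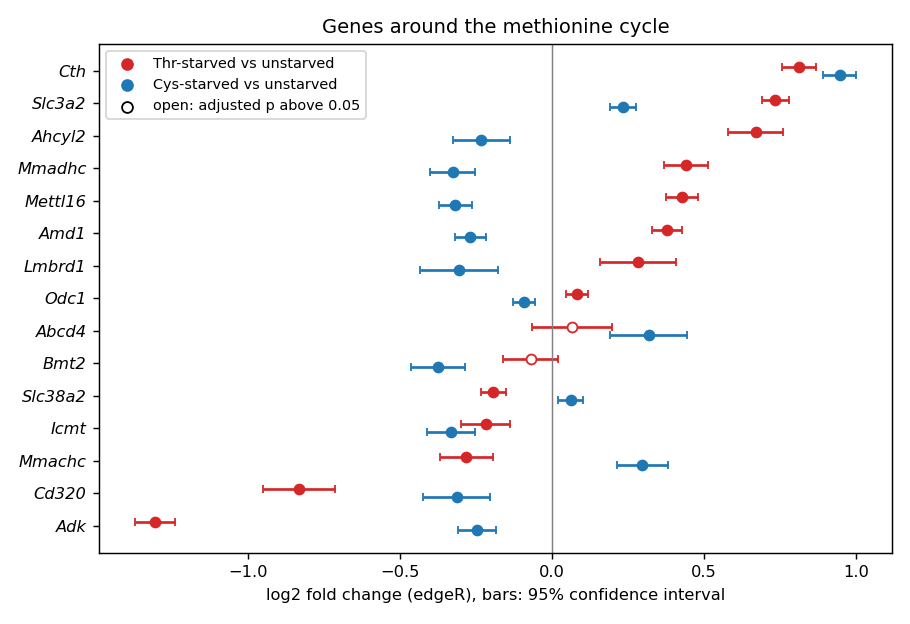
Log2 fold change (x axis) with 95% confidence intervals from the edgeR fit of 15 genes around the methionine cycle (y axis) in Thr-starved (red) and Cys-starved (blue) against unstarved cells, filled where the adjusted p was 0.05 or less. Cth and Slc3a2 lie right of 0 in both starvations, Adk and Cd320 left of 0 in both, and 8 genes, among them Ahcyl2, Mettl16 and Amd1, lie on opposite sides.

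The remaining named genes came from uptake, SAM sensing and methyl use. Slc3a2, the heavy chain of the carrier that brings in large neutral amino acids including methionine, was at 350, 359 and 355 CPM in unstarved, 424, 418 and 408 CPM in Cys-starved and 586, 589 and 594 CPM in Thr-starved libraries. The groups did not overlap, and Slc3a2 was 1.66-fold higher with Thr (edgeR adjusted p = 1.9e-18) and 1.18-fold higher with Cys starvation (7.2e-09). Bmt2, the SAM sensor gene also known as Samtor, was lower with Cys starvation (1.3-fold, edgeR adjusted p = 3.5e-07) and not called with Thr starvation (log2 fold change -0.07, adjusted p = 0.16), although it was -0.30 and called (7.4e-07) with GC and length trends removed. Icmt, which methylates prenylated proteins, was lower with Thr (-0.22, edgeR adjusted p = 3.2e-05) and Cys starvation (-0.33, 4.2e-07), and its Thr value was -0.03 and not called (0.44) with GC and length trends removed. Slc38a2, a carrier of neutral amino acids including methionine, was lower with Thr (-0.19, edgeR adjusted p = 1e-08) and higher with Cys starvation (0.06, 0.018), and the latter call was lost with the authors' size factors (0.02, adjusted p = 0.52), with GC and length trends removed (0.02, 0.59) and without unstarved replicate 1 or Cys-starved replicate 2 (0.094 and 0.061). Of the 7 uptake genes, 3 were called higher and 1 lower with Thr, and 5 higher and 1 lower with Cys starvation, and of the 4 tested small-molecule methyltransferase genes, 1 was higher and 2 lower with Thr, and 1 higher and 1 lower with Cys starvation.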

How the data were processed

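mRNA of 9 libraries was sequenced from both ends of poly(A) RNA. The authors mapped the reads to GRCm38 with STAR (2.7.4a per the submitters' processing notes) and counted them per gene with HTSeq, and the deposited counts carry no normalization. The deposited signal values of a companion table are the same counts divided by a size factor per library, to a relative deviation of at most 5.6e-10. They were used only for those factors, which the authors took from DESeq2. With Cys starvation these factors moved log2 fold changes by a median of -0.042 from the main fit, and DESeq2 on these 9 libraries by -0.004 (genes averaging 5 CPM or more). From which libraries and genes the deposited factors were estimated is not given in the sources used here. How multimapping and overlapping reads were counted, and on which strand, is not given in the sources used here.

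Counts were tested in R 4.3.3 with edgeR 4.0.16 (TMM, quasi-likelihood F test, all 9 libraries in 1 fit, genes with at least 1 count, Benjamini-Hochberg adjustment over all 20143 genes, threshold 0.05). SEs were taken from the F statistic. Ratios of raw counts were compared by exact two-sided permutation tests with SciPy 1.17.1, adjusted over 9 tests. Some of the fits were run on simulated data in which few genes changed, in the comparison of Thr-starved with unstarved libraries. That setting does not cover data in which most genes are called. Symbols (20171 of 20189 genes), coordinates and exon lengths came from GENCODE M21 on GRCm38, promoter windows from RefSeq GRCm38.p6, and near-identical copies from BLAST 2.17.0. No protein sequence was used here.

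The 7 genes and the lists of related and marker genes were chosen with earlier results of these data known. A related gene is not reported here and was left out of its list. Of the related genes, those named were the called genes with the 2 highest and the 2 lowest fold changes in each comparison (mean of at least 1 CPM), and those called in opposite directions in the starvations. The others (Cbs, Ada, Ythdc1, Nudt21, Srm, Sms, Bhmt, Gnmt, Gamt, Pemt and the genes after Mtap) were named after their values were seen, to fill out their lists. For each of the 7, the 2 genes of highest r were named. Alternatives were RLE and the authors' size factors, DESeq2 1.42.0, filterByExpr, at least 10 counts in every library, fits of 2 groups, a replicate block, offsets removing GC and length trends (loess, span 0.3), an adjusted p of 0.01, a count of 1 added to ratios, leaving out each library, and copies added after seeing the data.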

Additional observations from a re-analysis of the deposited data

Results flagged for a closer look

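Mat2b was the only one of the 7 genes whose effects had opposite signs with at least 1 of them called, and its direct test of Thr-starved against Cys-starved libraries (edgeR quasi-likelihood test, adjusted over all genes) was called, with a log2 difference of -0.23; its Cys value of 0.01 was itself not called. Of the related genes, 8 were called in opposite directions against unstarved cells, 6 higher with Thr and lower with Cys starvation and 2 the reverse. Of all genes tested, barely counted ones included, 7.45% were called in opposite directions. The log2 difference between Thr and Cys starvation was 0.90 for Ahcyl2, 0.77 for Mmadhc, 0.75 for Mettl16, 0.65 for Amd1, 0.59 for Lmbrd1, 0.17 for Odc1, -0.25 for Slc38a2 and -0.58 for Mmachc. Their direct tests were all called. A further 6 related genes, Adi1, Apip, Cbs, Gamt, Mri1 and Pemt, had effects of opposite sign and a called direct test, with log2 differences of -0.41, -0.21, -0.27, -1.03, -0.15 and 0.50, but at least 1 of their effects against unstarved cells was not called. In all these genes the Thr and Cys effects were measured against the same unstarved libraries. Groups of 3 libraries were too small for a search for single outlying libraries.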

How the results depend on the processing

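The directions of Mat2a, Ahcy, Ahcyl1 and Mtap, and all their calls but that of Ahcyl1 between the starvations, were kept in all alternatives run. The number of the 7 genes called higher with Thr starvation was 0 and became 1 (Mtr) with RLE, the authors' size factors, DESeq2, filterByExpr or 2 groups alone; leaving out 1 library gave 0 to 1. Signs turned for values near 0 that were not called: Mat2b with Cys starvation was -0.0315 with the authors' size factors and -0.0179 with GC and length trends removed, and -0.0110 to 0.0336 with 1 library left out. Mtrr was -0.0125 with Cys starvation and 0.0185 between the starvations with the authors' size factors, and 0.0498 in the latter with GC and length trends removed; leaving out 1 library gave -0.0229 to 0.0451 with Thr and -0.0041 to 0.0638 with Cys starvation. The log2 ratio of Mtr to Mtrr between the starvations was -0.0685 to 0.0110 with 1 library left out. The cause of these shifts was not tested.

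With the replicate number as a block, 12488 genes were called with Thr and 7063 with Cys starvation, against 12689 and 7313 without it, and 5 and 3 of the 7 genes were called lower as before. Same-numbered libraries did not deviate together (correlations of -0.244 to 0.106 over 11410 genes), so the numbers were not taken as pairs. With 3 libraries per group, the ratio tests could not pass 0.05.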
